A study of Homo sapiens with 15 samples.

Results

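The 10 genes described here encode 9 polypeptide GalNAc-transferases (GALNT1, GALNT2, GALNT3, GALNT4, GALNT6, GALNT7, GALNT10, GALNT11 and GALNT12) and C1GALT1, the enzyme that acts directly after them. They were taken by gene symbol from a table of 59608 symbols, and all 10 were among the 15233 genes tested. RNA was measured in spheroids of MDA-MB-231, an established line from a triple-negative breast cancer, after 24 h with DMSO as the vehicle or with ZJ-101 at 0.5, 5, 50 or 500 nM. The compound was made by synthesis as a simpler relative of superstolide A, a product of a marine sponge. Treatment began once spheroids had formed for 72 h. The spheroids of 96 wells were pooled into 1 biological replicate, and each of the 5 groups had 3. All groups are 1 cell line with no genetic change, so the replicates measure the spread between pools.

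The GalNAc-transferases sit in the Golgi and attach N-acetylgalactosamine (GalNAc) from UDP-GalNAc to serine or threonine, the first step of a mucin-type O-glycan. The family is redundant in part: some members act on bare peptide, and others prefer peptides that already carry a GalNAc nearby. C1GALT1 then adds galactose to make the core 1 structure, and it needs the chaperone C1GALT1C1 (Cosmc) to fold in the endoplasmic reticulum.

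Libraries held 7773325 to 10065633 reads in genes (median 9108870). Values are normalised read counts, that is reads divided by a size factor for each library. Markers of the line were present (VIM 16256 to 18870 normalised reads over 15 libraries), ESR1 reached at most 1.89 and PGR was at 0, whereas ERBB2 was at 1082 to 1314 and EPCAM at 204 to 309. Transcripts of fibroblasts varied between libraries and were highest in 3. The sum over 10 fibroblast markers was 692 to 736 with DMSO, 650.1 to 4556 at 0.5 nM, 643 to 3206 at 5 nM, 592 to 612 at 50 nM and 702 to 4112 at 500 nM. The 3 highest were replicate 2 of both the 0.5 and the 5 nM group and replicate 1 of the 500 nM group. The other libraries of these groups also had reads of DCN, but fewer. The lowest DCN value was 0.902 at 0.5 nM, 1.11 at 5 nM and 4.72 at 500 nM, against 0 in DMSO and at 50 nM. Those at 0.5 and 5 nM stand for 1 read each, in replicate 1 and replicate 3. The marker sums of these libraries, 650.1 and 643, were below all DMSO libraries. The highest DCN values, 51.3, 42.7 and 40.0, were those of the 3 highest libraries. COL3A1 was at 20.8 to 207 in the 500 nM libraries, against at most 2.01 in DMSO, and POSTN at 2.29 to 91.2, against 0. The upper ends of both ranges were from replicate 1. At 0.5 and 5 nM the lowest POSTN value was 0. Not all markers moved in this way, since DPT reached at most 1.09 in any library and PDGFRB was at 68.8 to 91.2 at 500 nM, against 106 to 149.9 in DMSO. The part of fibroblast RNA in the results was not tested beyond leaving out the 3 highest libraries. In bulk RNA, fewer cells of a type and less RNA per cell cannot be told apart.

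RefSeq promoter windows, from 250 bases before to 50 after a transcription start, were found for 8 of the 10 genes, with 10 windows in all on GRCh38.p14. The windows of GALNT2 and GALNT3, which fell with dose, and of GALNT7, which rose, are printed 5′ to 3′ on the strand of the gene. Capitals mark the GC box (GGGCGG) and the CCAAT box (CCAAT), read on both strands, and the GC boxes of GALNT3 share 1 base.
GALNT2, chr1:230066988-230067287, plus strand: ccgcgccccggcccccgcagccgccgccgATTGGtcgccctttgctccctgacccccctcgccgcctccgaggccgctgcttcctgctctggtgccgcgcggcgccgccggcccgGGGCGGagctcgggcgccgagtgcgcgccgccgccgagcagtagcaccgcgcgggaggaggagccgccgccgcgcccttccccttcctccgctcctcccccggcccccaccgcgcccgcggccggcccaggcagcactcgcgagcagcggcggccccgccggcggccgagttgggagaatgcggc
GALNT3, chr2:165794198-165794497, minus strand: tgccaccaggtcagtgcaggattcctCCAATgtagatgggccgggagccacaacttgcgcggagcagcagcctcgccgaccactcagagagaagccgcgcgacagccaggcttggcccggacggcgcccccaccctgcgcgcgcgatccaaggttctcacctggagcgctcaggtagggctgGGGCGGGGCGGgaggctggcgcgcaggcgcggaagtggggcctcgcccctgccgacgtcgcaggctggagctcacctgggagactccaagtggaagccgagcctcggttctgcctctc
GALNT7, chr4:173168561-173168860, plus strand: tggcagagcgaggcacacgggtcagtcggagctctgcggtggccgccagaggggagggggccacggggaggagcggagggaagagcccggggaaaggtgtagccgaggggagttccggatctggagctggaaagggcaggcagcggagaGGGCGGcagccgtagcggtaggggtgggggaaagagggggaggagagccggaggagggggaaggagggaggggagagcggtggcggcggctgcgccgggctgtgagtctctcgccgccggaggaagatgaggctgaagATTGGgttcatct
Each of these windows held matches to both boxes. Counted from the start, the CCAAT match was at -221 in GALNT2 and -224 in GALNT3. That of GALNT7 was at 37, after the start. GC was 82.0%, 70.0% and 69.67% of the GALNT2, GALNT3 and GALNT7 windows and 57.53% over all 35116 windows. A GC box was in 8 of the 10 windows, against 44.95% of all windows, and a CCAAT box in 5, against 34.61%. The 10 windows are not all separate, since those of GALNT1 that start at 35581231 and 35581490 overlap. By gene, a GC box was in 7 of the 8 genes with a window and a CCAAT box in 5. No window held the E-box CACGTG (7.26% of all windows), the Golgi stress element ACGTGGC (3.22%), the unfolded protein response element TGACGTGG (0.73%), the C/EBP-ATF element TGATGNAAT (0.99%) or the AP-1 element TGANTCA (7.71%). These are matches of letters alone.

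The comparison of each dose with DMSO asks whether the transcripts of these enzymes moved with ZJ-101. At 500 nM 7 of the 10 genes were lower and 2 were higher (limma on log2 values, Benjamini-Hochberg adjusted p below 0.05 over all tested genes). Over all tested genes 16.2% were called lower and 16.2% higher. The median log2 fold change of the 10 genes was -0.42, with a median of -0.000231 over all tested genes. GALNT3 fell 1.94-fold, GALNT1 1.72-fold and GALNT2 1.53-fold, whereas GALNT6 rose 1.46-fold and GALNT7 1.31-fold. GALNT4 was the 1 gene not called (adjusted p = 0.151). For the same 7 and 2 genes, the 3 libraries at 500 nM lay outside the range of the 3 DMSO libraries. Of all tested genes, 20.4% lay wholly below and 21% wholly above in this way. At 50 nM 7 genes were lower, where 9.66% of all genes were called lower, and 2 were higher, where 10.9% were called higher. The groups did not overlap for these genes either, and over all tested genes 16% lay wholly below and 17% wholly above. The genes called at 50 nM included GALNT4 and not GALNT12. At 5 nM 2 genes were lower (3.28% of all genes) and 0 were higher (3.63% of all genes), and at 0.5 nM 0 were higher (0.0656% of all genes) and 0 were lower (0.00656%). At 0.5 nM limma called 11 genes in all, DESeq2 4 and edgeR 8, and none of the 10 genes had an unadjusted limma p under 0.05.

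**Figure D1:**
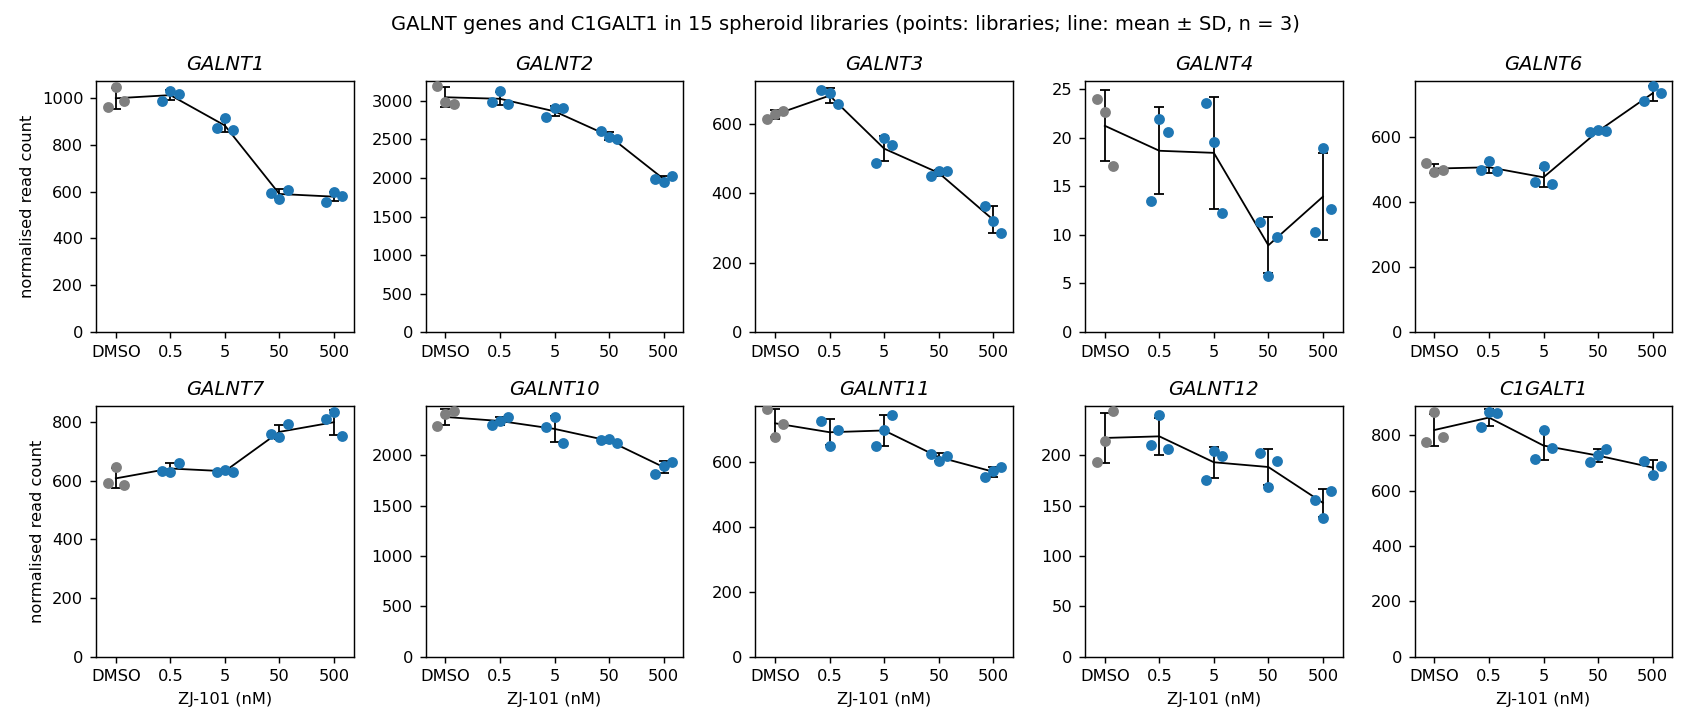
Normalised read counts (y axis, from 0) of the 10 genes in DMSO and at 4 doses of ZJ-101 (x axis, nM), with 1 point per library, grey for DMSO and blue for ZJ-101, and a line through the means ± SD (n = 3). GALNT1 levels off after 50 nM, GALNT2 and GALNT3 keep falling, GALNT6 and GALNT7 are raised at 50 and 500 nM, and GALNT4 reaches at most 24.0 reads.

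**Figure D2:**
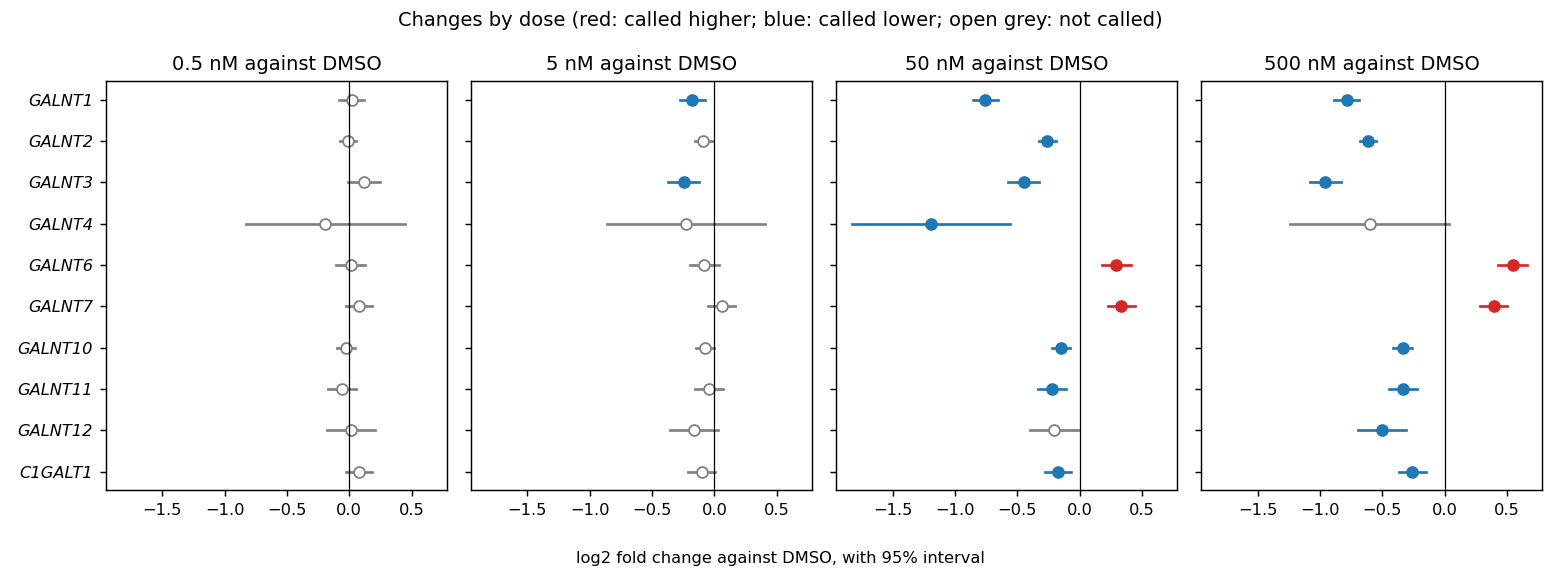
Log2 fold change against DMSO (x axis, with its 95% interval) for the 10 genes at each dose. Red points were called higher, blue points lower and open grey points were not called. GALNT6 and GALNT7 stand to the right of 0 at 50 and 500 nM, and the interval of GALNT4 is the widest of the 10.

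GALNT1 and GALNT2 are broadly expressed initiators that act on bare peptide. GALNT1 (chromosome 18, 35581117 to 35711834) had 963, 1048 and 985 normalised reads with DMSO, 988, 1030.2 and 1018 at 0.5 nM, 871, 914 and 862 at 5 nM, 594, 569 and 607 at 50 nM, then 556, 597 and 583 at 500 nM. All libraries at 5 nM and above were below all DMSO libraries, and the ranges at 50 and 500 nM overlapped. Against DMSO, the log2 fold change was -0.18 ± 0.05 (SE) at 5 nM (adjusted p = 0.0154), -0.76 ± 0.05 at 50 nM (adjusted p = 6.25e-25) and -0.79 ± 0.05 at 500 nM (adjusted p = 1.64e-26). The step between 5 and 50 nM was -0.58 (adjusted p = 8.58e-18). Between 50 and 500 nM no difference was called (-0.03, 95% interval -0.13 to 0.07), so 96.4% of the log2 change at 500 nM was present at 50 nM. The call at 5 nM was lost without DMSO replicate 2 (adjusted p = 0.137) and without replicate 1 (0.0667) or replicate 3 (0.0796) of the 5 nM group.

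GALNT2 (chromosome 1, 230057990 to 230282122), known for its part in lipid metabolism, was the most abundant of the 10 genes per kilobase of exon. It had 3195, 2989.7 and 2957 normalised reads with DMSO, 2991, 3125 and 2966 at 0.5 nM, 2789, 2903 and 2902 at 5 nM, 2609, 2527 and 2501 at 50 nM, then 1992, 1942 and 2029 at 500 nM. The groups at 5, 50 and 500 nM followed one another downwards with no overlap. GALNT2 fell by 0.26 ± 0.03 (SE) on the log2 scale at 50 nM (adjusted p = 4.98e-10) and fell by 0.62 ± 0.03 at 500 nM (adjusted p = 2.45e-31). At 5 nM the log2 fold change was -0.09 (adjusted p = 0.104, not called). The step between 50 and 500 nM was -0.36 (95% interval -0.42 to -0.29) and that between 5 and 50 nM was -0.17 (adjusted p = 3.98e-05). At 50 nM GALNT2 had 42.0% of its log2 change at 500 nM.

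GALNT3 and GALNT6 are close relatives in sequence that moved in opposite directions. GALNT3 (chromosome 2, 165747588 to 165794659), which protects the phosphate hormone FGF23 from cleavage by glycosylating it, had 614, 629 and 638 normalised reads with DMSO, 699, 688 and 658 at 0.5 nM, 489, 559 and 539 at 5 nM, 449.5, 464 and 463 at 50 nM, then 364, 321 and 287 at 500 nM. The libraries at 0.5 nM were all above DMSO, although this was not called (log2 fold change 0.12, adjusted p = 0.66), and each higher dose lay below the one before with no overlap. The log2 fold change against DMSO was -0.25 ± 0.06 (SE) at 5 nM (adjusted p = 0.00579), -0.45 ± 0.06 at 50 nM (adjusted p = 6.51e-09) and -0.96 ± 0.06 at 500 nM (adjusted p = 1.29e-25). The call at 5 nM was lost without replicate 1 at 5 nM (adjusted p = 0.104). Replicate 1 at 500 nM, the highest of its group, is 1 of the 3 libraries highest in fibroblast transcripts. Without these 3 the log2 fold change at 500 nM was -1.04, although the remaining 500 nM libraries also held some.

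GALNT6 (chromosome 12, 51351247 to 51392867), an initiator known from breast tumours, had 519, 493 and 498 normalised reads with DMSO, 499.5, 528 and 496 at 0.5 nM, 463, 511 and 457 at 5 nM, 615, 622 and 619 at 50 nM, then 712, 757 and 737 at 500 nM. The libraries up to 5 nM overlapped, and those at 50 and 500 nM lay above them in order. On the log2 scale GALNT6 rose by 0.30 ± 0.06 (SE) at 50 nM (adjusted p = 2.34e-05) and by 0.55 ± 0.06 at 500 nM (adjusted p = 4.74e-14), while the difference at 5 nM was -0.08 (adjusted p = 0.497). The step between 50 and 500 nM was 0.25 (95% interval 0.13 to 0.36, adjusted p = 0.000725). Per kilobase of exon, the ratio of GALNT6 to GALNT3 was 1.22, 1.47 and 1.61 in the libraries at 500 nM, against 0.528, 0.490 and 0.488 in DMSO. GALNT3 thus had the higher level of the pair in DMSO and GALNT6 the higher level at 500 nM.

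GALNT7 and GALNT10 form another pair of relatives, and both prefer peptides that already carry GalNAc. GALNT7 (chromosome 4, 173168811 to 173323967) had 592, 647 and 584 normalised reads with DMSO, 632, 630.4 and 661 at 0.5 nM, 630.1, 636 and 629.8 at 5 nM, 758, 748 and 792 at 50 nM, then 811, 834 and 751 at 500 nM. It was raised at 50 and 500 nM, and these groups overlapped each other but no lower dose. Its log2 fold change was 0.33 ± 0.05 (SE) at 50 nM (adjusted p = 2.81e-07) and 0.39 ± 0.05 at 500 nM (adjusted p = 9.13e-10). No difference was called between 50 and 500 nM (0.06, 95% interval -0.05 to 0.17).

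GALNT10 (chromosome 5, 154190730 to 154420984) had 2288, 2412 and 2437 normalised reads with DMSO, 2296, 2338 and 2382 at 0.5 nM, 2278, 2380.2 and 2122 at 5 nM, 2146, 2163 and 2118 at 50 nM, then 1815, 1897 and 1933 at 500 nM. The libraries at 50 and 500 nM lay below DMSO, and those at 0.5 and 5 nM overlapped it. Its log2 fold change was -0.15 ± 0.04 (SE) at 50 nM (adjusted p = 0.000812) and -0.34 ± 0.04 at 500 nM (adjusted p = 9.76e-14). Per kilobase, the ratio of GALNT7 to GALNT10 was 0.690, 0.678 and 0.599 at 500 nM, against 0.399, 0.413 and 0.369 in DMSO, so GALNT10 kept the higher level of this pair.

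**Figure D3:**
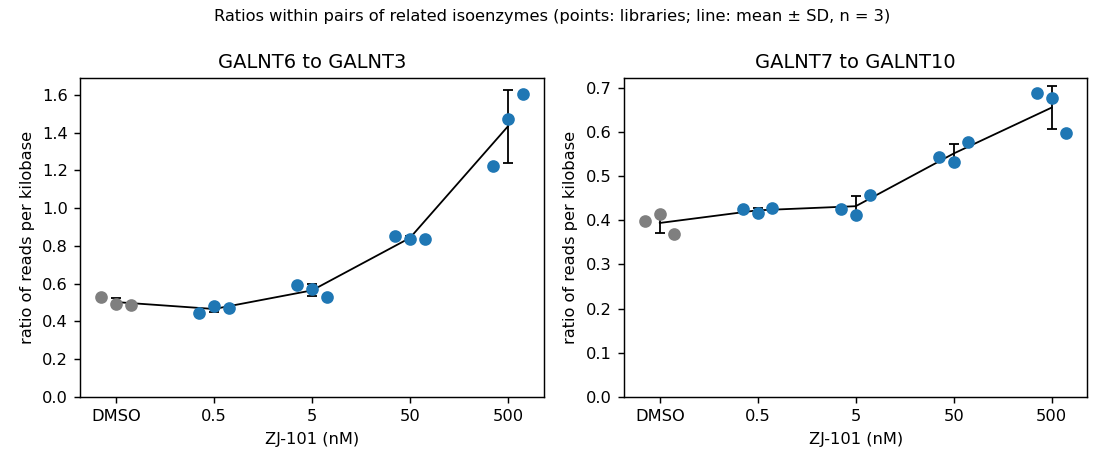
Ratio of normalised reads per kilobase of exon (y axis, from 0) of GALNT6 to GALNT3 and of GALNT7 to GALNT10 in DMSO and at 4 doses of ZJ-101 (x axis, nM), with 1 point per library and the mean ± SD (n = 3). GALNT6 to GALNT3 was 1.43 ± 0.195 at 500 nM and 0.502 ± 0.0227 in DMSO, and GALNT7 to GALNT10 was 0.656 ± 0.0493 at 500 nM and 0.394 ± 0.0226 in DMSO.

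GALNT4 and GALNT12 are again related, and both were scarcer. GALNT12 (chromosome 9, 98807670 to 98850081), best known from the colon, had 194, 214 and 244 normalised reads with DMSO, 210.1, 240.4 and 206 at 0.5 nM, 176, 204 and 199.6 at 5 nM, 202, 168 and 195 at 50 nM, then 156, 138 and 165 at 500 nM. Only the libraries at 500 nM lay wholly below DMSO, where the log2 fold change was -0.50 ± 0.10 (SE, adjusted p = 1.06e-05). No difference was called at 50 nM (log2 fold change -0.20, adjusted p = 0.144). A lncRNA on the opposite strand covers 20.9% of the exon bases of GALNT12, and since it is not known whether counting used strand, reads of the pair cannot be told apart. Likewise, lncRNAs lie opposite 13.3% of GALNT2 and 5.79% of GALNT7, and the protein-coding gene SLC4A8 lies opposite 5.34% of GALNT6.

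GALNT4 (chromosome 12, 89519412 to 89524796), which has a single exon, had 24.0, 22.6 and 17.1 normalised reads with DMSO, 13.5, 21.9 and 20.5 at 0.5 nM, 23.6, 19.5 and 12.2 at 5 nM, 11.3, 5.74 and 9.74 at 50 nM, then 10.2, 18.9 and 12.6 at 500 nM. The libraries at 50 nM were below DMSO and those at 500 nM overlapped it. For GALNT4 the log2 fold change was -1.19 ± 0.32 (SE) at 50 nM (adjusted p = 0.00277) and -0.60 ± 0.32 at 500 nM (adjusted p = 0.151), and at this depth a difference between 50 and 500 nM could not be shown (0.59, 95% interval -0.04 to 1.23). The exon shares 93.4% of its bases with the readthrough gene POC1B-GALNT4 on the same strand, so reads of the pair cannot be told apart there. That symbol had at most 1 read in any DMSO library and was at 0 at 50 and 500 nM. POC1B, the neighbouring gene with a role at centrioles, had 163 ± 19.4 normalised reads at 500 nM and 167 ± 12.6 in DMSO (SD, n = 3 each, adjusted p = 0.818).

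GALNT11 (chromosome 7, 152025674 to 152122340) is known to glycosylate the receptor Notch1. It had 764, 679 and 718 normalised reads with DMSO, 728, 650.0 and 701 at 0.5 nM, 650.5, 699.9 and 745 at 5 nM, 626, 603 and 620.0 at 50 nM, then 554, 574 and 585 at 500 nM. The groups at 50 and 500 nM lay below DMSO and the lower doses overlapped it. Its log2 fold change was -0.22 ± 0.06 (SE) at 50 nM (adjusted p = 0.00122) and -0.33 ± 0.06 at 500 nM (adjusted p = 3.86e-07). C1GALT1 (chromosome 7, 7156934 to 7248616), the core 1 galactosyltransferase, had the smallest change among the called genes at 500 nM. It had 776, 884 and 795 normalised reads with DMSO, 828, 884 and 878 at 0.5 nM, 714, 819 and 754 at 5 nM, 702, 728 and 748 at 50 nM, then 706, 655 and 688 at 500 nM. All libraries at 50 and 500 nM were below all DMSO libraries, and those at 50 and 500 nM overlapped each other. The log2 fold change was -0.26 ± 0.05 (SE) at 500 nM (adjusted p = 3.01e-05) and -0.17 ± 0.05 at 50 nM (adjusted p = 0.0122). The 50 nM call was lost without DMSO replicate 2 (adjusted p = 0.186) or replicate 1 at 50 nM (0.0857). Its chaperone C1GALT1C1 (chromosome X, 120625674 to 120630054) had 265 ± 10.1 normalised reads at 500 nM and 341 ± 16.1 in DMSO (SD, n = 3 each, log2 fold change -0.36, adjusted p = 5.88e-05).

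The neighbouring doses placed the changes. Between 0.5 and 5 nM 3 genes fell (GALNT1, GALNT3 and C1GALT1), against 3.37% of all genes, and 0 rose, against 3.69%. Between 5 and 50 nM 5 fell (GALNT1, GALNT2, GALNT3, GALNT4 and GALNT11), against 8.96%, and 2 rose (GALNT6 and GALNT7), against 9.51%. Without the 3 libraries highest in fibroblast transcripts 3 fell in this step. GALNT3 was then not called (log2 change -0.16, adjusted p = 0.105, against -0.20 with all libraries), nor was GALNT4 (-0.91, adjusted p = 0.0771, against -0.97). The count was also 3 without replicate 2 of the 5 nM group or without replicate 2 of the 50 nM group. The GALNT4 step was lost in DESeq2 (adjusted p = 0.0853). It was also lost without replicate 1 (0.147) or 2 (0.0778) at 5 nM or replicate 2 at 50 nM (0.177). GALNT11 was lost without replicate 3 at 5 nM (0.154) or replicate 2 at 50 nM (0.0671). GALNT3 was lost without replicate 2 (0.116) or 3 (0.0578) at 5 nM or replicate 1 at 50 nM (0.0653). Between 50 and 500 nM 4 fell (GALNT2, GALNT3, GALNT10 and GALNT12), against 7.04%, and 1 rose (GALNT6), against 5.65%. The step of C1GALT1 between 0.5 and 5 nM was close to the threshold (adjusted p = 0.0202, with 0.0517 in DESeq2 and 0.0519 in edgeR), as was that of GALNT12 between 50 and 500 nM (0.0257, with 0.0899 in DESeq2). These steps share libraries with the comparisons against DMSO and with each other.

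Fitted to log10 dose without any DMSO library, over 12 libraries, a line fell for 7 genes, against 13.9% of all tested genes, and rose for 2, against 14%. The steepest falls per 10-fold dose were those of GALNT3 (log2 change -0.34 ± 0.03, SE) and GALNT1 (-0.30 ± 0.03). GALNT6 gained 0.20 ± 0.03 and GALNT7 0.12 ± 0.02 per 10-fold dose. GALNT4 was not called on this line (-0.22 ± 0.12, adjusted p = 0.179). An F-test over the 5 groups called all 10 genes, against 39% of all tested genes, with GALNT4 the weakest (adjusted p = 0.00933).

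Divided by exon length, the levels of the 10 genes could be ordered within the groups. The length is that of all exons annotated for a gene, and which isoforms were expressed was not tested. The order, the ratios between genes and the shares of a summed level rest on these lengths. At 500 nM GALNT2 led with 258 ± 5.63 normalised reads per kilobase (SD, n = 3), followed by GALNT10 at 179 ± 5.80, GALNT7 at 117 ± 6.30, GALNT1 at 113 ± 4.02, GALNT6 at 100.1 ± 3.04, C1GALT1 at 87.8 ± 3.35, GALNT3 at 70.6 ± 8.41, GALNT11 at 68.9 ± 1.87, GALNT12 at 48.3 ± 4.37 and GALNT4 at 2.58 ± 0.830. Neighbours whose libraries overlapped were GALNT7 with GALNT1, and GALNT3 with GALNT11. In DMSO GALNT2 led with 395 ± 16.7, followed by GALNT10 at 227 ± 7.59, GALNT1 at 195 ± 8.60, GALNT3 at 137 ± 2.60, C1GALT1 at 105 ± 7.43, GALNT7 at 89.3 ± 5.02, GALNT11 at 86.9 ± 5.15, GALNT12 at 68.6 ± 7.98, GALNT6 at 68.5 ± 1.90 and GALNT4 at 3.94 ± 0.676. Here GALNT7 overlapped GALNT11, and GALNT12 overlapped GALNT6. GALNT2 and GALNT10 were the highest in every group, and the middle of the order changed. GALNT4 was divided by its whole exon, of which 93.4% is shared with POC1B-GALNT4. If reads of shared bases were left out in counting, its level per kilobase is understated, so its last place is uncertain.

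The 9 GALNT genes summed to 953, 961 and 959 normalised reads per kilobase at 500 nM, against 1269.6, 1275 and 1267 in DMSO, a ratio of the means of 0.754. The sum was 1281 ± 18.1 at 0.5 nM, 1181 ± 35.3 at 5 nM and 1082 ± 13.1 at 50 nM (SD, n = 3 each). Of this pool GALNT6 made up 10.5% ± 0.274 at 500 nM and 5.40% ± 0.156 in DMSO, and GALNT7 12.3% ± 0.661 and 7.02% ± 0.374. GALNT1 made up 11.8% ± 0.370 at 500 nM and 15.3% ± 0.637 in DMSO, GALNT3 7.37% ± 0.905 and 10.8% ± 0.213, and GALNT2 26.9% ± 0.630 and 31.1% ± 1.33. The share of GALNT10 was 18.7% ± 0.539 at 500 nM and 17.8% ± 0.597 in DMSO. The level of C1GALT1 was 0.0917 ± 0.00385 of the pool at 500 nM and 0.0829 ± 0.00562 in DMSO. The pool leaves out paralogs that are not among the 9 genes, and it counts transcripts, not enzyme activity. The part of GALNT4 in the pool depends on how reads shared with POC1B-GALNT4 were counted, which is not given.

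**Figure D4:**
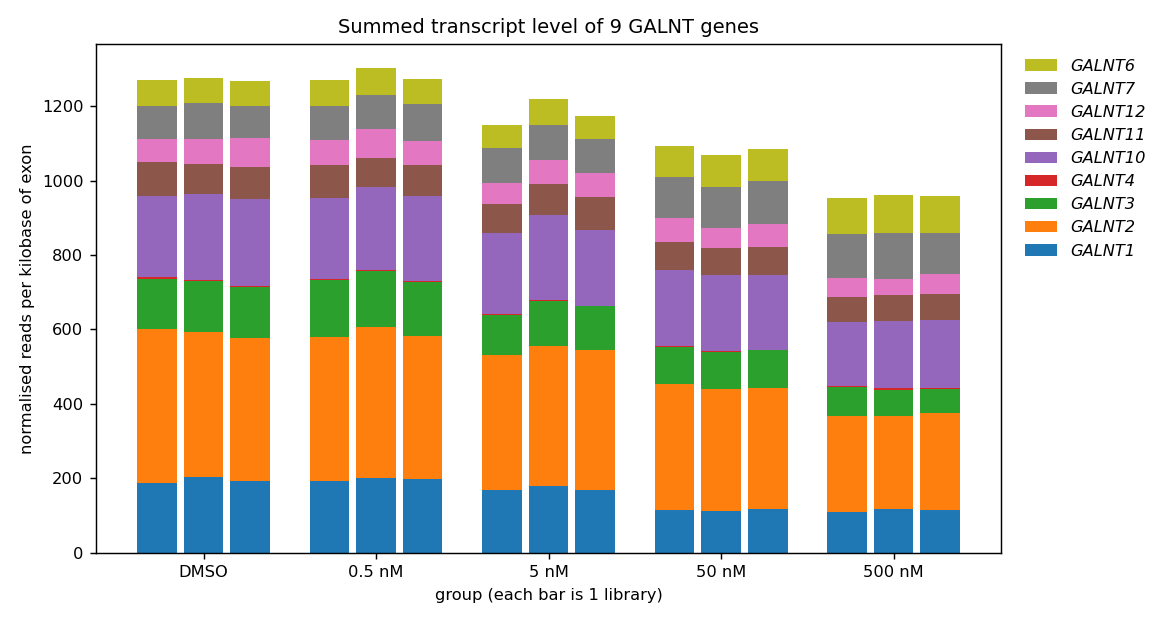
Summed level of the 9 GALNT genes (y axis, normalised reads per kilobase of exon, from 0), 1 bar per library, grouped by dose, with GALNT7 and GALNT6 at the top of each bar. The bars are at 953 to 961 at 500 nM and at 1267 to 1275 in DMSO, while the GALNT6 and GALNT7 segments are larger at 500 nM.

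Of 11 other GALNT genes in the table, 4 passed the filter on low values. At 500 nM all 4 were lower (median log2 fold change -0.69), where 16.2% of all tested genes were called lower. GALNT5 had 805 ± 22.4 normalised reads at 500 nM and 1044 ± 64.0 in DMSO (SD, n = 3 each, log2 fold change -0.37, adjusted p = 1.41e-10), and GALNT18 had 160.1 ± 21.5 and 251 ± 26.3 (-0.65, adjusted p = 3.49e-09). The others were near the filter. GALNT14, a relative of GALNT2, had 6.23 ± 0.611 at 500 nM and 16.7 ± 4.22 in DMSO (adjusted p = 0.00297), and GALNT13, a relative of GALNT1, had 13.4 ± 1.92 and 22.8 ± 1.18 (adjusted p = 0.0389). The GALNT13 call was lost in DESeq2 (adjusted p = 0.132), with no filter on low values (0.082) and without any one of the 3 DMSO libraries (0.0636 to 0.101). It was also lost without replicate 1 (0.141) or replicate 2 (0.0578) of the 500 nM group. Leaving out the 3 libraries highest in fibroblast transcripts lost it too (0.14). With a mean of at least 50 as the filter, 2 paralogs were left and both were lower.

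The genes that build on the first GalNAc fell in most cases at 500 nM. Of 9 tested genes of core formation and extension, 6 were lower and 1 was higher (median -0.34), where 16.2% of all tested genes were called in each direction. B4GALT1 and B4GALT5, which add galactose in chain extension, fell 1.79-fold and 1.59-fold, to 1646 ± 102 and 1493 ± 64.7 normalised reads at 500 nM, against 2949 ± 106 and 2369 ± 48.3 in DMSO. B3GNT2, which extends poly-N-acetyllactosamine, fell 1.65-fold and B4GALT3 1.26-fold. The 1 that was higher, B3GNT3, rose 1.44-fold at 54.2 ± 3.27 reads against 38.2 ± 10.5 (adjusted p = 0.0249). This call was lost in DESeq2 (0.123), in edgeR (0.054) and with no filter on low values (0.0515). It was also lost without DMSO replicate 1 (0.0672) or 3 (0.221) and without replicate 1 (0.0659) or replicate 2 (0.0781) of the 500 nM group. Leaving out the 3 libraries highest in fibroblast transcripts lost it too (0.0703). Of 7 tested genes of sialic acid capping, 3 were lower and 1 was higher (median -0.04), again against 16.2% each way over all tested genes. ST3GAL1 and ST3GAL2, which cap galactose of core 1, fell 1.46-fold and 1.35-fold, ST6GALNAC2 fell 1.80-fold, and CMAS, which activates sialic acid, rose 1.21-fold.

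Genes for the supply of UDP-GalNAc and UDP-galactose gave 6 higher and 1 lower of 11 at 500 nM (median 0.14, with 16.2% of all tested genes called in each direction). UAP1, which makes UDP-GlcNAc and UDP-GalNAc, rose 1.30-fold, to 571 ± 42.2 normalised reads at 500 nM, against 439 ± 9.96 in DMSO. PGM3 rose 1.22-fold and the transporter SLC35D1 1.24-fold, while GFPT2, an entry enzyme of the hexosamine pathway, fell 1.74-fold. GFPT1, the other entry enzyme, went the other way, with 1040 ± 20.2 normalised reads at 500 nM and 927 ± 40.4 in DMSO. The UDP-galactose transporter SLC35A2 was at the threshold (log2 fold change 0.14, adjusted p = 0.0498). It was not called in DESeq2 (0.112), in edgeR (0.08), with TMM scaling (0.0621), with no filter (0.0792), without DMSO replicate 1 (0.117) or 2 (0.356) or without replicate 2 (0.229) or 3 (0.105) at 500 nM. GALK2, a kinase of GalNAc, rose 1.30-fold (adjusted p = 0.0175) and was not called in DESeq2 (0.0752), without DMSO replicate 3 (0.219) or without replicate 3 of the 500 nM group (0.0581).

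Enzymes that start other kinds of O-glycan were also mostly lower at 500 nM, with 9 lower and 2 higher of 12 (median -0.56), against 16.2% each way over all tested genes. One of the 9, POGLUT2 (log2 fold change -0.59, adjusted p = 0.036), was not called in DESeq2 (0.137), in edgeR (0.0761), with no filter (0.0613), without DMSO replicate 3 (0.246) or without replicate 2 of the 500 nM group (0.417). POFUT2 and POFUT1, which attach O-fucose to thrombospondin and EGF repeats, fell 2.19-fold and 1.57-fold. COLGALT2, a collagen galactosyltransferase, fell 1.81-fold and POGLUT3, which glucosylates EGF repeats, 1.46-fold. The 2 that rose were POMT1, an O-mannosyltransferase (1.21-fold), and OGT, which adds O-GlcNAc in the cytosol and nucleus (1.18-fold). At 50 nM 6 of the 12 were lower, against 9.66% of all tested genes, and 1 was higher, against 10.9%. Lower counts were thus not limited to the GALNT genes, and the difference between lists was not tested.

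Of 11 tested proteins known to carry O-GalNAc, 10 had lower transcripts at 500 nM and 1 had higher ones (median -0.39), against 16.2% each way over all tested genes. The mucin MUC1 had 710.1 ± 13.2 normalised reads at 500 nM and 1669.7 ± 76.3 in DMSO (SD, n = 3 each), a fall of 2.35-fold (adjusted p = 6.84e-42). Dystroglycan (DAG1) had 1980.0 ± 38.9 at 500 nM and 3581 ± 50.6 in DMSO, a fall of 1.81-fold (adjusted p = 3.24e-45). APP, the precursor of amyloid beta, fell 1.22-fold. The 1 called higher was CD55, a regulator of complement at the cell surface (1.18-fold, adjusted p = 1.81e-08). The mucin MUC16 did not pass the filter on low values and was not tested there. It had 14.3, 12.3 and 16.1 normalised reads at 500 nM, against 7.62, 3.61 and 6.03 in DMSO, with no overlap.

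**Figure D5:**
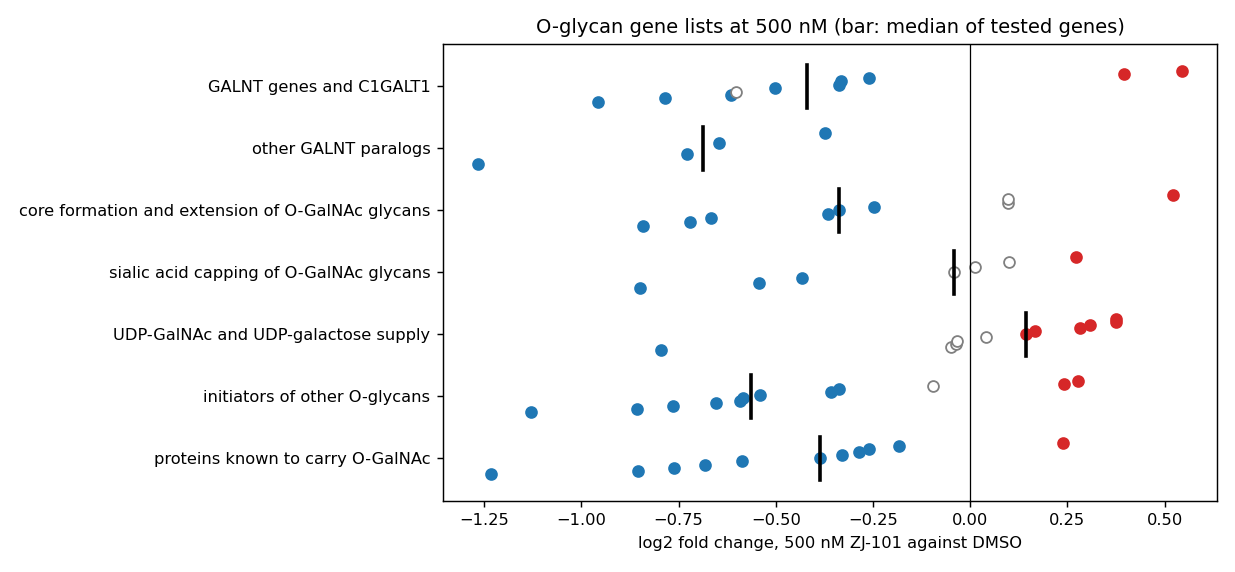
Log2 fold change at 500 nM against DMSO (x axis) of each tested gene in 7 lists, with red for genes called higher, blue for genes called lower, open grey for genes not called, and a black bar at the median of each list. The supply genes have a median above 0 at 0.14, and the other medians lie between -0.69 and -0.04.

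Over the 15 libraries, the genes whose log2 values were most like those of GALNT6 were CNNM2 (Pearson r = 0.981), SLC12A2 (0.979), MACO1 (0.979) and ABCG1 (0.976). Those most like GALNT2 were TPPP (r = 0.991), COL18A1 (0.987), MAN2B2 (0.987) and SLIT2 (0.984). The 15 libraries share dose groups, so these values describe the dose pattern. At 500 nM CNNM2 had 1053 ± 28.4 normalised reads, against 816 ± 7.69 in DMSO, and TPPP 79.3 ± 8.07, against 268 ± 10.9.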

How the data were processed

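The study's methods describe paired-end sequencing of poly(A)-selected RNA, alignment to hg38 by HISAT2 and gene counts from htseq-count. The annotation was the GENCODE release then current. Its number, the tool versions and the treatment of strand and of reads shared by genes are not given in the sources used here. The authors deposited a signal value for each gene and library, the gene count divided by a DESeq2 size factor. Checked on the values, 100.0% of them were whole multiples of 1 step per library (tolerance 0.001), which gave back the reads. Tables of log2 fold changes, standard errors, Wald scores and p-values for each dose were deposited too and were not used.

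Log2 of the normalised count plus 1 was fitted with limma 3.58.1 (intensity trend, robust), over the 15233 genes averaging 10 or more, 5 groups in 1 model, two-sided and with Benjamini-Hochberg adjustment over all genes. A slope per 10-fold dose was fitted in the 12 treated libraries. Fold changes are on the log2(value + 1) scale, which understates those of scarce genes. The script was tested on simulated data. Positions and exon lengths came from GENCODE release 44 on hg38, promoter windows from RefSeq on GRCh38.p14. Protein sequences were not analysed here.

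The 10 genes and the 6 other lists were chosen from general knowledge with earlier results of these data known. All 10 genes, up to 4 of each list with the smallest p at 500 nM, C1GALT1C1, POC1B and the 4 genes most correlated with GALNT6 and with GALNT2 are named by rule. One gene that the rule names is not reported here. B3GNT3, GFPT1, SLC35A2, GALK2, POGLUT2, OGT, POMT1, CD55 and MUC16 were named after their values were seen. As alternatives, the low-count filter was dropped or raised to 50, scaling was by TMM, the pseudocount was 5, only the groups compared entered the fit, or the recovered reads were tested with edgeR 4.0.16 or with DESeq2 1.42.0. Further ones were a replicate block, a minimum absolute log2 fold change of 1, the sum of GALNT4 and POC1B-GALNT4, a pool not divided by length, each library left out in turn, and the 3 libraries highest in fibroblast transcripts left out. Python 3.11.15 and R 4.3.3 were used.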

Additional observations from a re-analysis of the deposited data

How the results depend on the processing

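At 500 nM the 7 lower and 2 higher GALNT family genes kept their direction and their call under the alternatives that gave them a value, except for the minimum absolute log2 fold change of 1. With that minimum the counts at 500 nM and in the steps between 0.5 and 5, 5 and 50, and 50 and 500 nM were 0 higher and 0 lower. They were also 0 higher at 50 nM and 0 lower at 5 nM, and 1 gene (GALNT4) was lower at 50 nM. The minimum was not applied to the slope. Leaving out 1 library at a time gave 0 to 2 lower genes at 5 nM and 3 to 5 lower genes between 5 and 50 nM, and leaving out the 3 libraries highest in fibroblast transcripts gave 3 in that step. Alternative values were counted over the 10 genes, 7 comparisons and the slope, apart from the minimum fold change. Of these, 1950 kept their side of the threshold, 28 lost the call and 1 gained it. A change of sign with a call in either fit occurred 0 times. Changes of sign without a call were counted as kept. An example is GALNT12 between 5 and 50 nM, at -0.04 with all libraries and 0.005 without the 3 highest in fibroblast transcripts. The ratio of the pool at 500 nM to DMSO was 0.772 when not divided by length. Among the 10 genes the replicate block changed no count of calls: 7 were lower and 2 higher at 500 nM. Over all tested genes it gave 4958 calls at 500 nM, against 4933 without it. Same-numbered libraries of different groups correlated at -0.12 to 0.18 in their deviations, so the numbers were not taken to pair them, and 7 of 15 libraries correlated best with one of their own number. Precision was lowest at low counts: the SE at 500 nM of GALNT4, GALNT13 and GALNT14 was 0.32, 0.29 and 0.36 on the log2 scale. How reads shared by GALNT4 and POC1B-GALNT4 were counted is not given.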
